A study of Mus musculus with 2 samples.

Results

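The CXC chemokines described here are 8 genes, Cxcl1, Cxcl2, Cxcl3, Cxcl9, Cxcl10, Cxcl13, Cxcl14 and Cxcl16. They were chosen by gene symbol, 8 of 31053 genes counted, and were followed across the cell classes of 2 single-cell RNA libraries, replicate 1 and replicate 2, from brains of Foxp3Egfp mice after an ischemic stroke. In this line Egfp is carried at Foxp3, which marks regulatory T cells, and the mice were 6 to 8 weeks old. After a flush with PBS, cells were sorted as CD45+CD11b+CD3-F4/80+, a myeloid gate whose cells the submitters call infiltrated macrophages. Both libraries belong to this 1 group, so there was no control brain and every comparison below is between cell classes inside the same libraries. The labels speak of pooled cDNA of stroke mice and leave unstated whether each replicate came from its own animals. The p-values may therefore measure technical spread only. A barcode was kept as a cell when it had 1000 or more unique molecular identifiers (UMIs, counted transcripts), 500 or more genes and no more than 10% of UMIs from mitochondrial genes, 15050 in replicate 1 and 7910 in replicate 2.

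Chemokines are small secreted proteins that steer migrating leukocytes through receptors on their surface. Cxcl1, Cxcl2 and Cxcl3 bind Cxcr2 and draw neutrophils, and myeloid cells make them within hours of an inflammatory signal that acts through the transcription factor NF-kB. Cxcl9 and Cxcl10 bind Cxcr3 on T and NK cells and are induced by interferons. Cxcl13 guides B cells through Cxcr5, Cxcl14 is a chemokine whose receptor is less settled, and Cxcl16 is made as a membrane-anchored protein that the proteases Adam10 and Adam17 can release and that binds Cxcr6. Microglia are the resident macrophages of the brain, and monocytes, neutrophils and monocyte-derived macrophages enter it after a stroke.

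Of the 8 genes, 6 lie on mouse chromosome 5 (GRCm38, GENCODE vM21 annotation). Cxcl3 (chr5:90786103-90789600), Cxcl1 (chr5:90891241-90893115) and Cxcl2 (chr5:90903871-90905938) are on the plus strand, and the start of Cxcl2 lies 117798 bases from that of Cxcl3 in RefSeq. Cxcl9 (chr5:92321347-92328079) and Cxcl10 (chr5:92346638-92348889) are on the minus strand, and Cxcl13 (chr5:95956951-95961068) is on the plus strand. Cxcl14 is at chr13:56288643-56296551 and Cxcl16 at chr11:70453983-70459984, both on the minus strand. Cxcl10 overlaps Art3 and Cxcl16 overlaps Zmynd15, in each case on the opposite strand, and the sources used here do not give the strand setting of the counting. Stretches of 50 bases are shared between Cxcl3 and 38 other genes, Cxcl2 among them, and between Cxcl9 and 72 other genes, so some of their reads could have been split or dropped.

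The promoters of Cxcl1, Cxcl2, Cxcl3 and Cxcl10 are shown because the first 3 hold the same sequence of NF-kB type. Capitals mark matches to the NF-kB and interferon-stimulated motifs on either strand, and the bases shown end before the gene's start in both RefSeq and GENCODE. The stretches are chr5:90891125-90891240 for Cxcl1, chr5:90903779-90903870 for Cxcl2 and chr5:90785981-90786100 for Cxcl3, all plus strand, and chr5:92348890-92349129, minus strand, for Cxcl10 (RefSeq, GRCm38.p6).
Cxcl1: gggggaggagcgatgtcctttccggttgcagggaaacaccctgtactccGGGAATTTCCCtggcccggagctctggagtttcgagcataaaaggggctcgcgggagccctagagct
Cxcl2: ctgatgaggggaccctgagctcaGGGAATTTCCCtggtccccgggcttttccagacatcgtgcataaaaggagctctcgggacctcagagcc
Cxcl3: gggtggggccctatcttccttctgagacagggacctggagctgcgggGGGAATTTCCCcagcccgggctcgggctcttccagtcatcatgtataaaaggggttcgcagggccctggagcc
Cxcl10: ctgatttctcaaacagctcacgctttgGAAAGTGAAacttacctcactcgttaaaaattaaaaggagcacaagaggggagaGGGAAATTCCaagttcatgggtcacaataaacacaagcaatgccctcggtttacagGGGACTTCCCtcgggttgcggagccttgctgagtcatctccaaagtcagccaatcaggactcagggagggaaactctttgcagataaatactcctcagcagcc
A match to the NF-kB consensus was found in 1281 of 32851 RefSeq promoters (3.9%), searched on both strands in the 250 bases before the start. On the sense strand it read GGGAATTTCC 71 to 62 bases before the start of Cxcl1, 97 to 88 before that of Cxcl2 and 73 to 64 before that of Cxcl3, and 28 promoters (0.0852%) held exactly these letters. In all 3 genes a match on the other strand overlapped it, shifted by 1 base. Cxcl10 held 2 matches, GGGAAATTCC 159 to 150 bases and GGGACTTCCC 103 to 94 bases before the start, letters held by 32 (0.0974%) and 39 (0.119%) promoters. Cxcl10 also held GAAAGTGAA, a match to the core GAAANNGAA of the interferon-stimulated response element, which 2342 promoters held (7.13%), and Cxcl9 and Cxcl14 held GAAATGGAA and GAAACAGAA. Neither motif had a match in the promoter of Cxcl13. RefSeq promoters were matched for 7 of the 8 members, and that of Cxcl16 was not searched. A match describes these letters and shows no bound factor.

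The 2 libraries held 101893367 and 62850768 UMIs, and kept cells had medians of 5356 and 5891.5 UMIs. Barcodes under 100 UMIs, which catch RNA free in the suspension, held 4.912% and 4.402% of all UMIs, and the 2 libraries shared 31 cell barcodes. After removal of likely doublets, 13625 and 7409 cells were clustered without the 8 members, and clusters were named from marker genes. The sort was labelled macrophage, yet microglia-like cells were the largest class with 5716 and 4556 cells, and macrophage-like cells numbered 4470 and 568. Monocyte-like (356 and 403), neutrophil-like (698 and 562), dendritic cell-like (262 and 222), cycling-like (410 and 213), T or NK cell-like (143 and 97) and stromal cell or pericyte-like cells (152 and 94) were also found. Levels below are UMIs per 1000000 UMIs of a class (CPM) in replicate 1 and then replicate 2. They count transcript ends, need no division by length and are compared within a gene only. The same cells were used to form the classes and to compare them, so a test between classes describes these classes and is not independent of the clustering.

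**Figure D1:**
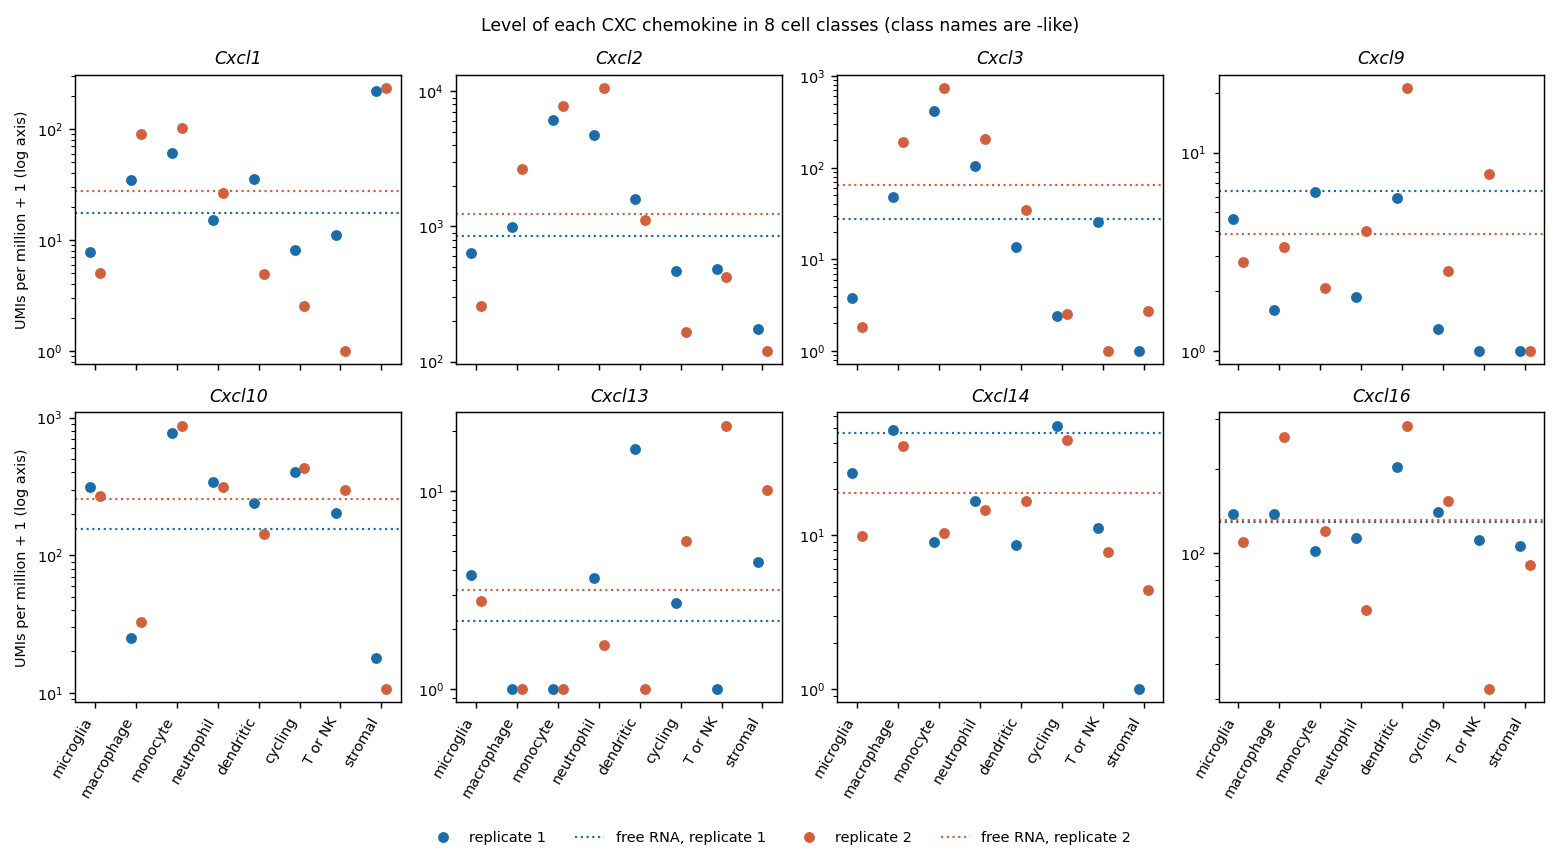
Level of each CXC chemokine (CPM plus 1, log axis) in 8 cell classes, with a point for each library and a dotted line at its level in free RNA of the same library. Cxcl2 and Cxcl3 were highest in the neutrophil-like and monocyte-like classes, Cxcl10 was lowest in the macrophage-like and stromal classes, and Cxcl1 was highest in the stromal class at 217 and 235.

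Macrophage-like cells held more Cxcl1, Cxcl2, Cxcl3, Cxcl14 and Cxcl16 and less Cxcl10 and Cxcl13 than microglia-like cells. With edgeR's quasi-likelihood test, adjusted by Benjamini-Hochberg over all genes tested, 5 of 8 members were higher and 2 lower (adjusted p under 0.05). Of the 11050 genes tested, 42.5% passed (20.7% higher and 21.8% lower). The variable genes used for clustering were left out of the genes tested. The members were kept whatever their variability, and so were the genes of the lists of ligands, receptors, proteases, NF-kB and interferon genes used below. Shares and medians given for all genes are therefore not those of every gene measured. The median log2 difference of the 8 members was 1.38, beside -0.03 for all genes tested. Monocyte-like cells held more Cxcl1, Cxcl2, Cxcl3 and Cxcl10 than microglia-like cells, 4 of 8 members, where 36.4% of genes passed (16.1% higher and 20.3% lower). Against macrophage-like cells, the monocyte-like class was higher in Cxcl2, Cxcl3 and Cxcl10 and lower in Cxcl14, where 21.0% of genes passed (9.82% higher and 11.2% lower). The median of the members was 0.93 against microglia-like cells, beside -0.20 for all genes, and 0.97 over 7 members against macrophage-like cells, beside -0.12. Neutrophil-like cells were higher than microglia-like cells in Cxcl2 and Cxcl3, where 4.36% of genes passed (4.06% higher and 0.299% lower), and the members' median was 0.05 beside -0.12. Dendritic cell-like cells were higher than microglia-like cells in Cxcl2, Cxcl3, Cxcl9 and Cxcl16, where 20.7% of genes passed (9.4% higher and 11.3% lower), and the median was 1.63 beside -0.13. The 4 comparisons with microglia-like cells share that class. Over all genes, the share of passing genes that were higher was 44.3% for monocyte-like against microglia-like, 46.6% for monocyte-like against macrophage-like and 45.4% for dendritic cell-like against microglia-like cells. These shares were 51.0%, 54.7% and 55.6% with RLE size factors alone changed, and 54.9%, 57.5% and 59.6% with DESeq2, which changes the test too.

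**Figure D2:**
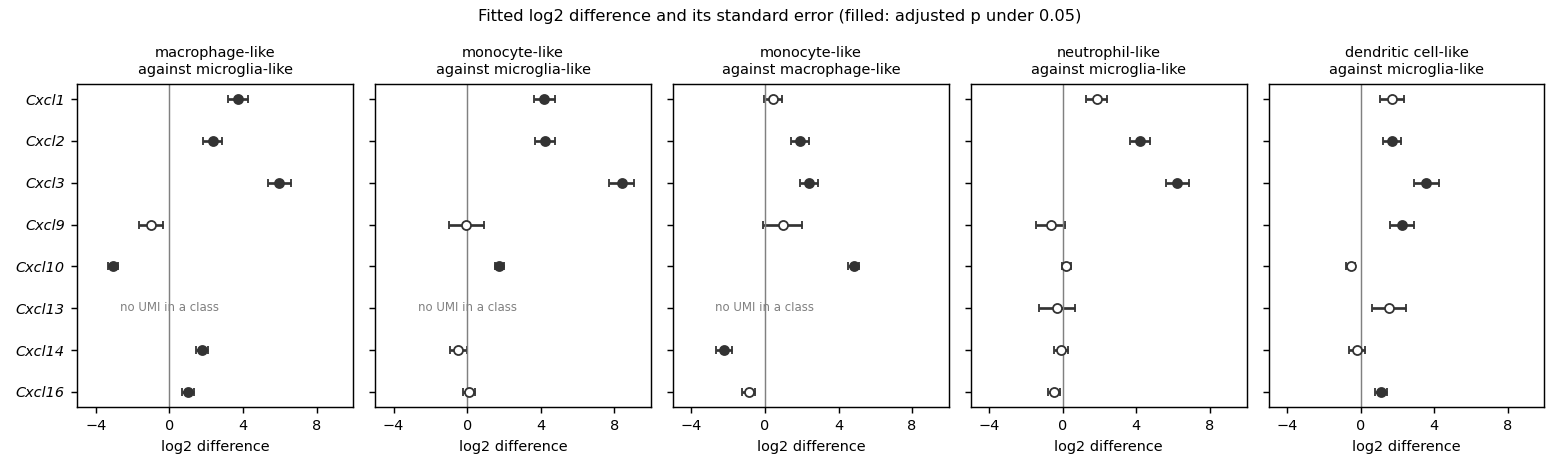
Fitted log2 difference of each member in 5 class comparisons, with its standard error as a bar and filled points where the adjusted p is under 0.05. Cxcl3 reaches 8.39 in monocyte-like against microglia-like cells, and Cxcl10 moves from -3.06 in macrophage-like against microglia-like cells to 4.82 in monocyte-like against macrophage-like cells. Cxcl13 is not drawn where a class has no UMI.

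Cxcl2, a neutrophil attractant made by activated myeloid cells, stood at 637 and 257 CPM in microglia-like, 987 and 2650 in macrophage-like, 6127 and 7838 in monocyte-like and 4764 and 10639 in neutrophil-like cells. The neutrophil-like and monocyte-like ranges overlapped, and both lay above every other class in both libraries. Dendritic cell-like cells had 1602 and 1123 CPM, within the macrophage-like range. Free RNA held 852 and 1229 CPM, so microglia-like, cycling-like (465 and 165) and stromal cells (173 and 119) lay below the free RNA of their own library. So did T or NK cell-like cells in both libraries and dendritic cell-like cells in replicate 2. T or NK cell-like cells, which are not a known source of Cxcl2, held 487 and 421 CPM, more than microglia-like cells in replicate 2. After each cell was thinned to 1000 UMIs, Cxcl2 was found in 23.3% and 9.17% of microglia-like, 69.1% and 69.2% of monocyte-like, 87.5% and 89.0% of neutrophil-like and 14.0% and 4.12% of T or NK cell-like cells. Without thinning these shares were 39.2% and 20.3%, 77.0% and 81.4%, 96.0% and 95.6%, and 22.4% and 7.22%. Cxcl2 was thus found in nearly every neutrophil-like cell and in most monocyte-like cells.

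Against microglia-like cells, Cxcl2 was higher by a log2 difference of 4.19 ± 0.55 (SE, 2 libraries) in neutrophil-like cells (edgeR adjusted p = 5.81e-05) and 4.25 ± 0.55 in monocyte-like cells (adjusted p = 8.75e-06). In dendritic cell-like cells the difference was 1.70 ± 0.49 (adjusted p = 0.0195; 0.0503 with a stricter cell filter). In macrophage-like cells it was 2.35 ± 0.51 (adjusted p = 9.98e-04), with 0.63 in replicate 1 and 3.36 in replicate 2 when each library was taken alone. This call rested on 1 macrophage-like cluster, led by Arg1, an enzyme of arginine breakdown. Without that cluster, an alternative added after the data were seen, the difference was 0.96 (adjusted p = 0.094). Monocyte-like cells exceeded macrophage-like cells by 1.90 ± 0.49 (adjusted p = 0.00984), and by 1.43 with a stricter cell filter (adjusted p = 0.117). Of all Cxcl2 UMIs in clustered cells, macrophage-like cells held 36.4% and 17.1%, neutrophil-like cells 25.8% and 39.4%, microglia-like cells 19.6% and 9.47% and monocyte-like cells 8.14% and 27.4%. The large share of macrophage-like cells in replicate 1 came with their large number there.

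Cxcl3, a close relative of Cxcl2 that binds the same receptor, was at 2.81 and 0.850 CPM in microglia-like, 46.6 and 188 in macrophage-like, 419 and 746 in monocyte-like and 103 and 203 in neutrophil-like cells. The monocyte-like class lay above every other class in both libraries, and the neutrophil-like and macrophage-like ranges overlapped. Dendritic cell-like cells had 12.5 and 33.4 CPM, below free RNA at 26.4 and 64.0, and the 24.5 CPM of T or NK cell-like cells in replicate 1 came from 12 UMIs in 1 cell. After thinning to 1000 UMIs, Cxcl3 was found in 9.27% and 16.9% of monocyte-like, 8.45% and 11.7% of neutrophil-like and 2.73% and 7.39% of macrophage-like cells. These were 16.3% and 26.6%, 18.9% and 21.4%, and 5.03% and 13.2% without thinning, beside 0.699% and 0 in T or NK cell-like cells. Cxcl3 was thus found in a minority of cells even in the class with the highest level.

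The log2 difference of Cxcl3 from microglia-like cells was 8.39 ± 0.66 in monocyte-like (edgeR adjusted p = 2.71e-08), 6.24 ± 0.61 in neutrophil-like (adjusted p = 2.63e-06) and 3.59 ± 0.66 in dendritic cell-like cells (adjusted p = 7.24e-04). The dendritic cell-like value rested on 18 and 76 UMIs in 6 and 5 cells. Macrophage-like cells exceeded microglia-like cells by 5.98 ± 0.61 (adjusted p = 2.59e-07), and by 0.58 without the Arg1-led cluster (adjusted p = 0.57). Monocyte-like cells exceeded macrophage-like cells by 2.41 ± 0.49 (adjusted p = 0.00173), a call not made with DESeq2 (2.42, adjusted p = 0.154) or with a stricter cell filter (1.64, adjusted p = 0.141). Of the Cxcl3 UMIs, macrophage-like cells held 56.8% and 25.7%, monocyte-like cells 18.4% and 55.1% and neutrophil-like cells 18.5% and 15.9%. The class that held most Cxcl3 transcripts thus differed between the 2 libraries.

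Cxcl1, the remaining Cxcr2 ligand of the 3, had another order. Stromal cell or pericyte-like cells, led by collagen genes, held 217 and 235 CPM and lay above every other class in both libraries. The CD45 and CD11b gate should remove cells of this type, and they made up 152 and 94 of the clustered cells. Monocyte-like cells had 59.6 and 101 and macrophage-like cells 33.8 and 88.5 CPM, ranges that overlapped, while neutrophil-like cells had 14.2 and 25.4 and microglia-like cells 6.80 and 4.05. Free RNA held 16.4 and 26.8 CPM. Cxcl1 was found in 27.6% and 36.2% of stromal cells, and in 10.5% and 11.7% after thinning to 1000 UMIs, beside 0.699% and 0 in T or NK cell-like cells. Compared with microglia-like cells, Cxcl1 was higher by 3.74 ± 0.53 (log2) in macrophage-like (edgeR adjusted p = 1.54e-05) and by 4.19 ± 0.56 in monocyte-like cells (adjusted p = 1.34e-05). Neutrophil-like cells, high in Cxcl2 and Cxcl3, differed by 1.86 ± 0.57 in Cxcl1 (adjusted p = 0.0748), which passed without the Arg1-led cluster in the fit (1.96, adjusted p = 0.0357). Monocyte-like and macrophage-like cells differed by 0.45 ± 0.50 (adjusted p = 0.577), and by 2.26 when the Arg1-led cluster was left out (adjusted p = 0.00325). Of the Cxcl1 UMIs, macrophage-like cells held 58.0% and 33.0% and stromal cells, which are few, 14.1% and 29.97%.

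The neutrophil-like class was mixed. Its 10 neutrophil markers summed to 29210 and 71983 CPM, and its 11 microglia markers to 10837 and 9607 CPM, beside 13207 and 19392 in microglia-like cells. When its cells were put in 3 equal groups by their share of microglia marker UMIs, Cxcl2 stood at 6861, 4462 and 3852 CPM from the lowest to the highest group in replicate 1 and at 20792, 14698 and 6229 in replicate 2. Cxcl3 stood at 184, 75.0 and 84.2 CPM and at 457, 191 and 139. The group with fewest microglia markers, and with most neutrophil markers (6.90% and 21.6% of UMIs), was the highest in CPM of both genes in both libraries. Its cells also had the fewest UMIs, with medians over the 3 groups of 3182, 6797 and 6700.5 and of 2062, 2453 and 8307. Cxcl2 UMIs in these groups were 7119, 7680 and 6995 and 9827, 10678 and 10943. Cxcl2 was found in 93.6% to 98.3% of cells of every group. The part of depth in the CPM differences was not tested. Cxcl10 had no such order in CPM, with 311, 412 and 291 CPM and 317, 329 and 300 CPM. The share of cells with a Cxcl10 UMI was lowest in the group with fewest microglia markers. It was 28.3%, 49.8% and 43.1% in replicate 1 and 7.98%, 16.6% and 31.0% in replicate 2, without thinning. Cxcl16 stood at 111, 109 and 115 CPM in replicate 1 and at 12.7, 64.7 and 73.4 CPM in replicate 2. The part of the microglia transcripts in the class differences was not tested. In monocyte-like cells the neutrophil markers summed to 2234 and 1425 CPM, with Ly6g and Ngp at 0 in both libraries.

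**Figure D3:**
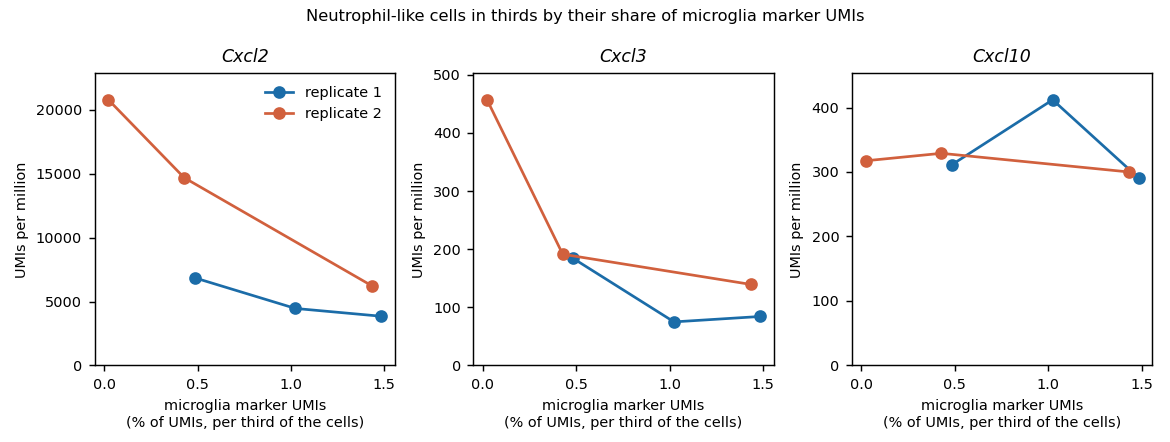
Levels of Cxcl2, Cxcl3 and Cxcl10 (CPM) in neutrophil-like cells, split in 3 equal groups by their share of microglia marker UMIs (x axis, percent of UMIs), with a line for each library. In CPM, Cxcl2 falls from 20792 to 6229 in replicate 2 as the microglia marker share rises, while Cxcl10 stays between 291 and 412. Median UMIs per cell rise from 2062 to 8307 over the same groups of replicate 2.

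Cxcl10, an attractant of T and NK cells, stood at 313 and 271 CPM in microglia-like and 772 and 874 in monocyte-like cells, but at 24.0 and 31.5 in macrophage-like cells. Cycling-like cells had 401 and 433, neutrophil-like cells 341 and 310, dendritic cell-like cells 241 and 143 and stromal cells 16.9 and 9.66 CPM. The cycling-like class was named by a state and carried microglia markers. These 11 genes summed to 11440 and 14581 CPM in it, beside 13207 and 19392 in microglia-like cells. Its 10 macrophage markers summed to 3448 and 2182 CPM. The monocyte-like class lay above all others and the macrophage-like class below all but the stromal class in both libraries, whereas the neutrophil-like, microglia-like and T or NK cell-like ranges (202 and 299) overlapped from neighbour to neighbour. Free RNA held 154 and 257 CPM. After thinning to 1000 UMIs, Cxcl10 was in 15% and 9.77% of microglia-like, 17.4% and 15.1% of monocyte-like, 24.4% and 15% of cycling-like, 1.70% and 2.99% of macrophage-like and 7.69% and 5.15% of T or NK cell-like cells (31.5% and 21.8%, 26.1% and 31.0%, 51.7% and 37.1%, 6.06% and 10.2%, and 14.0% and 13.4% without thinning). Microglia-like cells held 59.4% and 59.0% of all Cxcl10 UMIs. The class with most Cxcl10 transcripts was therefore the microglia-like one in both libraries.

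Cxcl10 was lower in macrophage-like than in microglia-like cells by a log2 difference of -3.06 ± 0.26, or 8.36-fold (edgeR adjusted p = 3.26e-08), with -3.65 and -3.06 in the 2 libraries taken alone. Monocyte-like cells exceeded microglia-like cells by 1.75 ± 0.24 (adjusted p = 1.87e-05) and macrophage-like cells by 4.82 ± 0.28, or 28.2-fold (adjusted p = 6.12e-09). The last difference was 4.95 and 4.75 in the 2 libraries alone. At a coarser clustering, where the Arg1-led cells joined the monocyte-like cluster, monocyte-like and microglia-like cells differed by 0.16 (adjusted p = 0.773). Neutrophil-like (0.19 ± 0.24, adjusted p = 0.722) and dendritic cell-like cells (-0.53 ± 0.24, adjusted p = 0.13) did not pass against microglia-like cells.

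Cxcl9, which shares the receptor of Cxcl10, was rare, with UMIs in 58 and 29 of all kept cells. Its level was 3.61 and 1.80 CPM in microglia-like, 0.610 and 2.33 in macrophage-like, 5.33 and 1.08 in monocyte-like and 4.88 and 20.2 in dendritic cell-like cells, beside 5.40 and 2.89 in free RNA. All these ranges overlapped from neighbour to neighbour. Dendritic cells are a known source of Cxcl9, and the dendritic cell-like class exceeded microglia-like cells by 2.24 ± 0.65 (edgeR adjusted p = 0.0205). That call rested on replicate 2, where 46 UMIs lay in 2 cells, and was not made with DESeq2 (1.95, adjusted p = 0.183). The difference was 0.35 in replicate 1 and 2.92 in replicate 2.

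Cxcl13, known for guiding B cells, was also rare, with UMIs in 57 and 44 cells. Microglia-like cells held 72 UMIs in 28 cells and 52 UMIs in 19 cells, or 2.77 and 1.77 CPM, beside 1.2 and 2.17 in free RNA. None of the 4470 and 568 macrophage-like cells had a Cxcl13 UMI, which allows shares of up to 0.0671% and 0.528%, and none of the 356 and 403 monocyte-like cells had one, which allows up to 0.843% and 0.744%. These limits cover counting error only and bound the share of cells with a UMI, not of cells that express the gene. Cxcl13 was at least 27.1-fold lower in macrophage-like than in microglia-like cells, taking 3 UMIs over both libraries as the floor (edgeR adjusted p = 0.00426), and at least 2.92-fold lower in monocyte-like cells, which did not pass (adjusted p = 0.189). Stromal cells held 4 and 16 UMIs. In T or NK cell-like cells 9 UMIs came from 1 cell of replicate 2, and in dendritic cell-like cells 22 UMIs came from 2 cells of replicate 1, so no order of the classes above microglia can be read.

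Cxcl14 stood at 24.3 and 8.94 CPM in microglia-like, 47.3 and 37.1 in macrophage-like, 50.7 and 40.8 in cycling-like and 8.00 and 9.33 in monocyte-like cells. The cycling-like and macrophage-like ranges overlapped and lay above all other classes. In replicate 1 only macrophage-like and cycling-like cells reached the free RNA level (45.0), and in replicate 2 the same 2 classes lay above it (17.7). Cxcl14 was found in 17.0% and 12.5% of macrophage-like cells, and in 3.94% and 3.35% after thinning to 1000 UMIs, beside 0 of the thinned T or NK cell-like cells. Macrophage-like cells exceeded microglia-like cells by 1.77 ± 0.31 (edgeR adjusted p = 1.51e-04), with 0.93 and 1.94 in the libraries alone, and monocyte-like cells were lower than macrophage-like cells by -2.25 ± 0.44 (adjusted p = 0.0014). Cxcl14 was thus ordered opposite to Cxcl2, Cxcl3 and Cxcl10 between monocyte-like and macrophage-like cells. Of the 896 Cxcl14 UMIs of microglia-like cells, 501 and 194 lay in cluster 8, a microglia-like cluster of 773 and 148 cells. At 86.8 and 86.9 CPM it lay above every macrophage-like cluster of its library, the highest of which had 54.2 and 85.4. The class difference from microglia-like cells thus does not hold for cluster 8, and its value without cluster 8 was not tested.

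Cxcl16 was found in all 8 classes, between 31.7 and 284 CPM. It stood at 136 and 109 CPM in microglia-like, 137 and 259 in macrophage-like, 100 and 119 in monocyte-like, 112 and 61.6 in neutrophil-like and 201 and 284 in dendritic cell-like cells, beside 128 and 130 in free RNA. The dendritic cell-like and macrophage-like ranges overlapped at the top of the order. Dendritic cell-like cells exceeded microglia-like cells by 1.1 ± 0.33 (edgeR adjusted p = 0.0237; 0.0584 without the library as a block). Macrophage-like cells exceeded them by 1.0 ± 0.32 (adjusted p = 0.017; 0.0533 with DESeq2), but by 0.01 in replicate 1 alone and 1.24 in replicate 2. Monocyte-like cells differed from macrophage-like cells by -0.89 ± 0.33 (adjusted p = 0.0658). A set of 8 and 9 cells led by Ccr7, Zmynd15 and Ccl22, too few to be named, had 860 and 763 CPM with a Cxcl16 UMI in every cell. Zmynd15 overlaps Cxcl16, and its part in this value was not tested.

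Among microglia-like cells, 5 clusters differed in which chemokines they held, and each was compared with the mean of the others. As with the classes, the clusters were formed from the cells compared, so tests between clusters are not independent of the clustering. Cluster 12 (141 and 154 cells), led by Ccl12 and the interferon-induced genes Ifit3b and Mx1, held Cxcl10 at 1449 and 1040 CPM and Cxcl9 at 74.6 and 21.4 CPM. Cluster 0, led by the activation genes Cd83 and Socs3, held Cxcl2 at 880 and 521 and Cxcl10 at 388 and 406 CPM. Cluster 1, led by the heat shock gene Hspa1b and the homeostatic microglia gene P2ry12, held Cxcl2 at 133 and 50.03 and Cxcl10 at 79.8 and 39.3 CPM, the lowest of the 5. Cluster 8, led by Ctla2a, Ch25h and the growth factor gene Igf1, held Cxcl14 at 86.8 and 86.9 CPM, beside 1.35 and 1.12 in cluster 1. These values did not overlap between the named cluster and the other microglia-like clusters for Cxcl10 and Cxcl9 in cluster 12 and for Cxcl14 in cluster 8. How many of all genes were without overlap was not counted, so this only describes the values.

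In cluster 12, where 1.88% of 11319 genes were higher and 0.0707% lower, Cxcl9 (log2 difference 5.78 ± 0.60, edgeR adjusted p = 1.63e-08), Cxcl10 (2.76 ± 0.17, adjusted p = 1.46e-14) and Cxcl13 (3.99 ± 0.93, adjusted p = 0.0123) were higher. The Cxcl9 value rested on 56 and 29 UMIs, found in 7.09% and 3.90% of the 141 and 154 cells without thinning. That of Cxcl13 rested on 15 and 7 UMIs, found in only 2.84% and 1.95% of these cells. In cluster 0, where 2.46% of genes were higher and 0.23% lower, Cxcl2 (1.62 ± 0.28), Cxcl10 (0.84 ± 0.18) and Cxcl13 (2.36 ± 0.64, adjusted p = 0.0383) were higher. In cluster 1, where 9.9% were higher and 9.97% lower, Cxcl1, Cxcl2, Cxcl10, Cxcl14 and Cxcl16 were lower, with -3.07 ± 0.24 for Cxcl10 and -2.54 ± 0.37 for Cxcl2. In cluster 8, where 22.2% were higher and 17.3% lower, Cxcl14 (5.07 ± 0.23, adjusted p = 1.35e-17), Cxcl1 (2.56 ± 0.54) and Cxcl16 (0.57 ± 0.19) were higher. In cluster 3, led by Egr1 and Klf2, where 6.96% were higher and 9.4% lower, Cxcl14 was lower (-3.15 ± 0.48). Cxcl10 was thus high both in the interferon-type and in the Cd83-led cluster, while Cxcl2 passed in the latter and not in the former (0.57 ± 0.31, adjusted p = 0.691); this difference between the clusters was not tested.

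**Figure D4:**
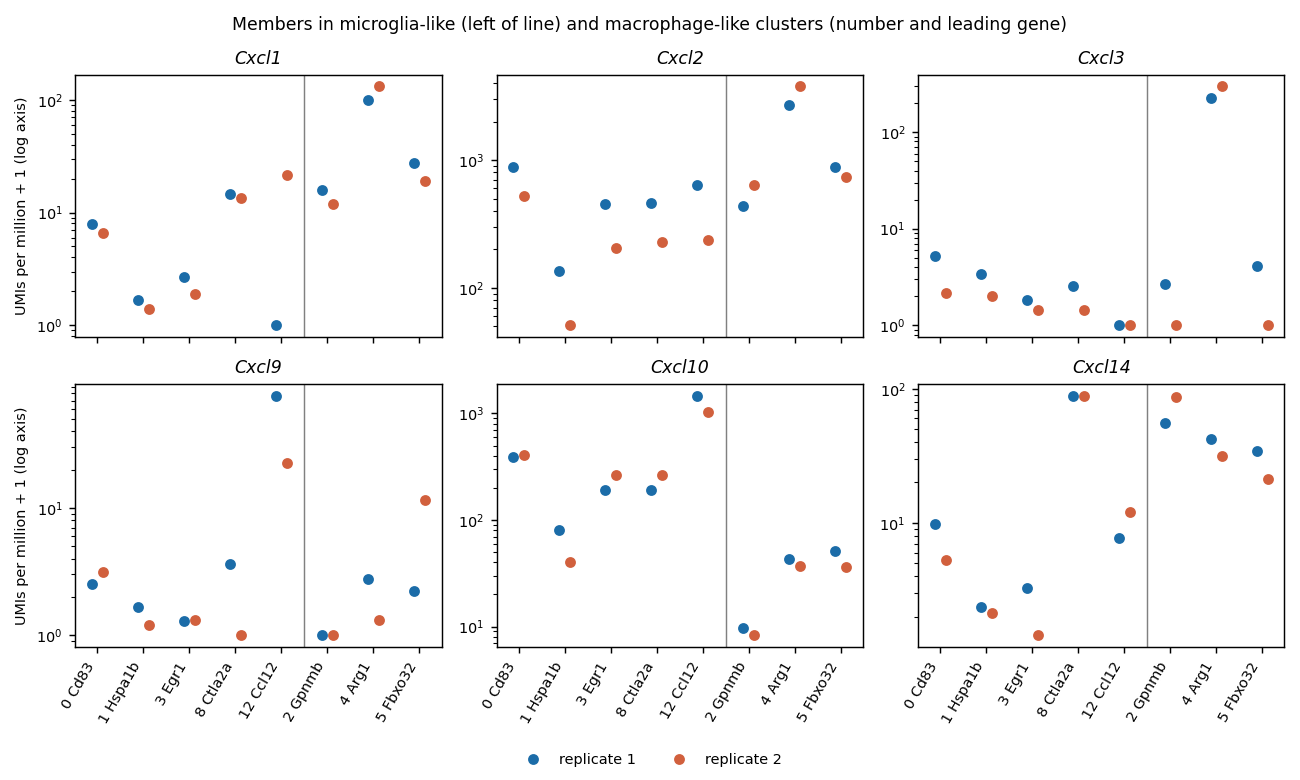
Levels of 6 members (CPM plus 1, log axis) in the microglia-like clusters (left of the line) and macrophage-like clusters (right of it), each named by its number and leading gene, with a point for each library. Cxcl3 stands at 225 and 296 in the Arg1-led cluster and at 4.16 or less in every other cluster shown, Cxcl9 peaks in the Ccl12-led cluster and Cxcl14 in the Ctla2a-led cluster.

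Among macrophage-like cells, the Cxcr2 ligands were highest in 1 of 3 clusters. Cluster 4 (1183 and 387 cells), led by Arg1, Clec4n and the heme-degrading enzyme gene Hmox1, held Cxcl1 at 97.6 and 130, Cxcl2 at 2719 and 3764 and Cxcl3 at 225 and 296 CPM. Cluster 2 (2063 and 58 cells) was led by Gpnmb and the lipid-handling gene Fabp4. It held Cxcl1 at 14.8 and 11.0, Cxcl2 at 438 and 642 and Cxcl3 at 1.68 and 0 CPM. Cluster 5 (1224 and 123 cells), led by Fbxo32 and Apoe, held them at 26.5 and 18.2, 888 and 731, and 3.06 and 0 CPM. Cxcl2 was thus found in all 3 clusters, and Cxcl3 was near 0 outside cluster 4. Of the 4470 and 568 macrophage-like cells, cluster 4 made up 1183 and 387, and the class levels of Cxcl1, Cxcl2 and Cxcl3 were higher in replicate 2. In cluster 4, where 6.71% of genes were higher and 6.67% lower, Cxcl3 (6.6 ± 0.40, edgeR adjusted p = 2.43e-13), Cxcl1 (2.39 ± 0.36), Cxcl2 (2.18 ± 0.32) and Cxcl10 (0.81 ± 0.25) were higher. In cluster 2, where 3.19% were higher and 3.11% lower, Cxcl1, Cxcl2, Cxcl3, Cxcl9 and Cxcl10 were lower and Cxcl14 was higher (1.02 ± 0.22, adjusted p = 0.00464). None of the 2063 and 58 cells of cluster 2 had a Cxcl9 UMI, which allows up to 0.145% and 5.17% of cells with a UMI. In cluster 5, where 7.64% were higher and 6.86% lower, Cxcl10 (1.38 ± 0.25) and Cxcl9 (4.09 ± 1.32, adjusted p = 0.0337, from 8 UMIs in 2 cells and 11 UMIs in 1 cell) were higher and Cxcl3 was lower (-2.83 ± 0.63). Over all 8 clusters 28 of the member tests passed, 16 higher and 12 lower. Of all genes tested, from 1.88% to 22.2% were higher and from 0.0707% to 17.3% lower, depending on the cluster. The tests also share clusters, so the total is a count and no result about the members.

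Whether the chemokines lay in the same cells is described here with each cell thinned to 2000 UMIs. Of the 31 and 85 monocyte-like cells with a Cxcl3 UMI, 96.8% and 98.8% also had Cxcl2, beside 72.9% and 68.3% of those without. In cluster 4, 93.8% and 95.7% of the 144 and 46 cells with Cxcl3 had Cxcl2, beside 61.0% and 64.1%, and 24.3% and 30.4% had Cxcl1, beside 7.98% and 7.50%. In monocyte-like cells with a Cxcl10 UMI, 81.5% and 72.6% had Cxcl2, beside 73.8% and 75.4% without, so this pair had no order common to both libraries. In microglia-like cells, 49.2% and 25.0% of the 1127 and 584 cells with Cxcl10 had Cxcl2, beside 32.2% and 10.5%, and of the 14 and 9 cells with Cxcl9, 57.1% and 55.6% had Cxcl10, beside 26.5% and 13%.

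The genes most like each member were taken by Pearson's r of log2(CPM + 1) over 32 sums, 16 clusters in each of the 2 libraries, among genes with a mean of at least 10 CPM. The points share libraries and cell classes, so r is a description. Cxcl2 was most like Pim1 (0.931), Nfil3 (0.928), Rnf149 (0.920), Clec4e (0.915) and Fosl2 (0.889), and Cxcl3 most like Il1rn (0.859), Mcemp1 (0.858), Slfn4 (0.845), AA467197 (0.841) and Gsr (0.839). The r between Cxcl2 and Cxcl3 was 0.814, and that between Cxcl1 and each of them 0.476 and 0.503. Cxcl1 was most like App (0.840), Tgfbi (0.820), Inf2 (0.817), Pdpn (0.805) and Gstm1 (0.8). Cxcl10 was most like Casp4 (0.863), Ccl12 (0.829), Sass6 (0.819), Ccl4 (0.808) and Herc6 (0.807), and Cxcl9 most like Parp12 (0.691), Ifit3 (0.673), Usp18 (0.672) and Ifit2 (0.668). Cxcl14 was most like Dtnbp1 (0.820), Gas2l3 (0.815), Nceh1 (0.802), Galns (0.799) and the cathepsin gene Ctsb (0.796). Cxcl13 had no gene above 0.669 (Npm1), then Chst2, Rpl15, Fdx1 and Tomm70a, and Cxcl16 was most like Acvrl1, Igsf8, Snx8, Uap1l1 and Arhgap24, at no more than an r of 0.76.

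The receptors marked other classes than most of the ligands. Neutrophil-like cells held Cxcr2, the receptor of Cxcl1, Cxcl2 and Cxcl3, at 113 and 281 CPM, monocyte-like cells at 23.1 and 11.8 and microglia-like cells at 1.84 and 1.29. Cxcr2 was higher in neutrophil-like than in microglia-like cells by 6.98 ± 0.44 (edgeR adjusted p = 2.81e-08), so a class high in Cxcl2 also held its receptor. Cxcr1, which belongs to the same receptor pair, had 5.46 and 26.1 CPM in neutrophil-like cells. T or NK cell-like cells held Cxcr3, the receptor of Cxcl9 and Cxcl10, at 26.5 and 65.7 CPM and Cxcr6, the receptor of Cxcl16, at 93.8 and 204 CPM, and Cxcr6 was below 1 CPM in every other class. Cxcr5, the receptor of Cxcl13, was at no more than 2.27 CPM in any class. Cxcr4, the receptor of Cxcl12, had 112 and 152 CPM in macrophage-like and 19.98 and 7.14 in microglia-like cells (3.62 ± 0.49, adjusted p = 7.36e-06). The scavenging receptor Ackr3 stood at 8.44 and 10.8 CPM in stromal cells, and the scavenging receptor Ackr1 was at 0 in each of the 8 classes compared here. In macrophage-like against microglia-like cells, 3 of 6 receptors tested, of 8 listed, were higher and none was lower. They were Cxcr1 (from 4 UMIs in macrophage-like cells), Cxcr3 and Cxcr4. Of all genes tested, 20.7% were higher and 21.8% lower in this comparison.

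Of the other CXC ligands, Cxcl12, a homing signal made by stromal cells, stood at 838 and 910 CPM in stromal cells and below 3 CPM in every other class of the 8. Pf4, known from platelets and macrophages, had 1302 and 1686 CPM in macrophage-like, 505 and 562 in monocyte-like and 59.3 and 17.9 in microglia-like cells, and 4406 and 2488 in cluster 4, beside 734 and 386 in free RNA. Ppbp, another platelet chemokine, had 149 UMIs in each library in macrophage-like cells and 3 and 0 in microglia-like cells. Pf4 (5.91 ± 0.60, edgeR adjusted p = 2.59e-07) and Ppbp (adjusted p = 1.84e-07) were higher in macrophage-like than in microglia-like cells, 2 of 3 tested of 7 listed. Cxcl5, Cxcl15 and Cxcl17 were at 0 in both libraries in the microglia-like, monocyte-like and neutrophil-like classes, and Cxcl11 is not analysed here. Among proteases that release or trim chemokines, 2 of 5 were higher in macrophage-like cells, Mmp9 (5.25 ± 0.80) and Mmp12 (2.98 ± 0.62). Adam10, which sheds Cxcl16, was the 1 that was lower (-0.90 ± 0.18). Beside the counts of other ligands and of proteases, 20.7% of all genes tested were higher and 21.8% lower in macrophage-like than in microglia-like cells.

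Taken as whole classes, macrophage-like cells were higher than microglia-like cells in the Cxcr2 ligands and lower in most genes of the NF-kB pathway. The Cxcl2 and Cxcl3 differences did not pass without the Arg1-led cluster 4, and the clusters differed in NF-kB genes, as given at the end of this paragraph. Of 21 such genes tested 1 was higher, Tnfaip2 (1.55 ± 0.38), and 13 were lower, with a median log2 difference of -0.95 and the largest drops in the cytokine genes Il1a (-2.79 ± 0.37) and Tnf (-2.11 ± 0.26) and the adhesion gene Icam1 (-2.43 ± 0.23). Of all genes tested in this comparison, 20.7% were higher and 21.8% lower. The shares of all genes in this paragraph leave out the variable genes used for clustering, while the list genes were kept whatever their variability. Of 22 interferon-induced genes 4 were higher, with Ifi47 (2.66 ± 0.26), Irf7 (1.27 ± 0.31) and Oasl1 (1.0 ± 0.30) first. Another 8 were lower, with Iigp1 (-3.35 ± 0.49), Gbp5 (-2.68 ± 0.40) and Gbp7 (-2.01 ± 0.23) first. Of 6 interferon and receptor genes, Ifnb1 (-3.54 ± 0.50) and Ifngr1 (-1.67 ± 0.20) were lower. T or NK cell-like cells held the interferon gene Ifng at 104 and 199 CPM, and the other 7 classes held it below 2 CPM. In monocyte-like against macrophage-like cells, 18 NF-kB and 20 interferon-induced genes were higher and none was lower, beside 9.82% of all genes higher and 11.2% lower. Against microglia-like cells, 7 and 19 were higher and 4 and 0 lower, beside 16.1% of all genes higher and 20.3% lower. In neutrophil-like cells 3 NF-kB genes (Il1b, Ptgs2 and Tnfaip2) and 6 interferon-induced genes were higher than in microglia-like cells and none was lower. Of all genes, 4.06% were higher and 0.299% lower there. In dendritic cell-like cells 7 NF-kB genes were higher and 3 lower, and 7 interferon-induced genes were higher and 1 lower. For all genes these shares were 9.4% higher and 11.3% lower. Among the microglia-like clusters, 15 NF-kB genes and 1 interferon-induced gene were higher in cluster 0, and 21 interferon-induced genes and no NF-kB gene in cluster 12. Of all genes tested, 2.46% were higher in cluster 0 and 1.88% in cluster 12. In cluster 3, where 6.96% of all genes were higher and 9.4% lower, 10 NF-kB genes were higher and none was lower. Of the interferon-induced genes, 14 were lower in cluster 3 and none was higher. Cxcl2 did not pass there (-0.11 ± 0.31, edgeR adjusted p = 0.905) and no member was higher. In cluster 1, where 5 members were lower, 15 NF-kB genes were lower and 1 was higher. Another 15 genes, all interferon-induced, were lower there and none was higher, beside 9.9% of all genes higher and 9.97% lower. In cluster 8, where 3 members were higher, 3 NF-kB genes were higher and 11 lower. Of its interferon-induced genes 9 were lower and none was higher, beside 22.2% of all genes higher and 17.3% lower. The genes that led cluster 12 are interferon-induced themselves, and cluster 0 was led by activation genes. The count of interferon-induced genes in cluster 12 and that of NF-kB genes in cluster 0 are therefore not independent of the clustering. The same holds for the Cxcl9 and Cxcl10 calls in cluster 12. In cluster 4, 9 NF-kB genes were higher and 1 lower, and 9 interferon-induced genes were higher, beside 6.71% of all genes higher and 6.67% lower. In cluster 2, where Cxcl1, Cxcl2, Cxcl3, Cxcl9 and Cxcl10 were lower, 12 NF-kB and 17 interferon-induced genes were lower. None of either list was higher, beside 3.19% of all genes higher and 3.11% lower. In cluster 5, where Cxcl3 was lower and Cxcl9 and Cxcl10 were higher, 3 NF-kB and 12 interferon-induced genes were higher. None of either list was lower there, beside 7.64% of all genes higher and 6.86% lower. A link between these lists and the members was not tested.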

How the data were processed

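Each library was made with the Chromium 3' v3 kit from sorted cells. The authors deposited raw UMI counts per gene and barcode as unfiltered matrices of Cell Ranger 4.0.0, and the submitters' processing notes also name STAR 2.5.1b and the builds GRCm38, mm10 and GRCh38 with no role given. The gene IDs matched GENCODE vM21 for 99.62% of 31053 genes, which gave the coordinates.

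Cells passed the filters given in the report. Doublets were scored with Scrublet in scanpy 1.11.5, which removed 1425 cells (9.468%) in replicate 1. In replicate 2 it called 0, a failed call, and the 501 cells of highest score (6.334%) were removed. Clustering used 2000 variable genes without the members, the gene lists below, mitochondrial and ribosomal genes, then 30 principal components, 15 neighbours and Leiden resolution 0.8. Clusters of at least 100 cells were named from marker lists, by a rule written after the clusters were seen. It asked for at least 3 detected markers and no better match among the 10 leading genes. Clusters left unnamed held 1177 and 677 cells and border-associated macrophage-like cells numbered 241 and 17; neither enters a class comparison.

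UMIs were summed per library and class and tested with edgeR 4.0.16 (TMM scaling, quasi-likelihood, library as a block, filter on low counts, Benjamini-Hochberg adjustment, threshold 0.05). The class fit had 16 sums, 7 residual degrees of freedom and 11050 genes, and the cluster fit 32 sums, 15 degrees of freedom and 11319 genes. Fitted log2 differences use TMM scaling, which moved class differences by -0.35 to 0.45, and so need not equal ratios of CPM. Values for a library alone add 1 CPM. All counts of a class pair come from the same 2 libraries, which is the ground for the block. Deviations of the same library correlated between classes at 0.0191 to 0.311 over 12188 genes. DESeq2 1.42.0 and the other alternatives are listed at the end.

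Levels carry a counting error only, and the floor for 0 is 3 UMIs. The members, lists and comparisons were chosen with earlier results of these data known. The text names all 8 members, up to 3 genes a direction of each context list in macrophage-like against microglia-like cells, the receptors and other ligands, and the 5 genes most like each member, of which 1 for Cxcl9 is not reported here. The lists are other CXC ligands, receptors, chemokine-cleaving proteases, NF-kB pathway genes, interferon-induced genes, and interferons with their receptors. Other genes named lead a cluster, were chosen after their values were seen, or serve as markers.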

Additional observations from a re-analysis of the deposited data

How the results depend on the processing

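Member counts passing the threshold stayed within 1.5 times the main count except in 3 cases. Monocyte-like against macrophage-like cells had 2 in place of 4 with a stricter cell filter (at least 2000 UMIs and 1000 genes, at most 5% mitochondrial), neutrophil-like against microglia-like cells had 4 in place of 2 at Leiden resolution 0.4, and the clusters had 46 in place of 28 with no filter on low counts. At resolution 0.4 the Arg1-led cells joined the monocyte-like cluster and cluster 8 no longer stood among the microglia-like clusters. There Cxcl14 turned from lower to higher against microglia-like cells, to 2.99 in monocyte-like, 1.72 in neutrophil-like and 1.27 in dendritic cell-like cells, none of which had passed at first; and Cxcl2 (0.90, adjusted p = 0.123) and Cxcl3 (0.35, adjusted p = 0.744) no longer passed in macrophage-like cells. Without the library as a replicate block the counts were 7, 4, 4, 2, 3 and 21, against 7, 4, 4, 2, 4 and 28 with it, and no direction of a called member changed. Each library alone kept the direction of every called member difference between classes. RLE size factors changed no call, and DESeq2 ended 3 calls of 40 member differences. At resolution 1.2 no cluster was named neutrophil-like or dendritic cell-like, and with doublets kept none was named neutrophil-like, so those comparisons have no value there. Over all genes, neutrophil-like against microglia-like counts moved from 482 to 764 with no filter, 299 without the block and 819 at resolution 0.4, monocyte-like against macrophage-like counts from 2326 to 921 at resolution 0.4, and dendritic cell-like counts from 2287 to 1520 without the block. The median of all genes moved from -0.20, -0.12 and -0.13 in monocyte-like against microglia-like, monocyte-like against macrophage-like and dendritic cell-like against microglia-like cells to -0.12, -0.05 and -0.04 with RLE size factors, and to -0.05, 0.00 and 0.00 with DESeq2, which changes the test too. The cause of these shifts was not tested. Counting unnamed cluster 7 as microglia-like, an alternative added after the data were seen, changed no member call. The class with the highest level was the same by the mean over cells for 8 of 8 members. By the share of cells with a UMI it differed for Cxcl10 (cycling-like) and Cxcl14 (macrophage-like) at 1000 UMIs, and for Cxcl10 (cycling-like) and Cxcl13 (stromal) at 2000 UMIs. The values of Cxcl9 and Cxcl13 rest on under 100 cells in each library.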
